A study of Mus musculus with 9 samples.

Results

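The tumour necrosis factor (TNF) superfamily was examined in LSK cells of mouse bone marrow: all genes on the array whose symbol begins with Tnfsf or Tnfrsf and a number, together with Tnf, Lta, Ltb, Ltbr, Cd40, Fas, Fasl and Cd70. The rule found 37 of the 30142 named genes, 14 ligands and 23 receptors, and the rule itself goes by symbol alone. LSK cells are defined by the absence of lineage markers and the presence of Sca-1 and c-Kit, and the population holds the stem cells of the blood and their earliest progeny. The KO group was 4 mice of the genotype Abi1(-/-);Tg (Mx1-cre(+)), in which Cre had deleted the floxed Abi1 alleles, and the WT group was 5 mice with floxed Abi1 and no Cre, Abi1(fl/fl);Tg (Mx1-cre(-)). All 9 mice had 3 injections of poly(I:C) at 8 to 9 weeks of age and gave marrow at 12 to 14 weeks. The Mx1 promoter answers to interferon and is not confined to blood cells, the transgene was present in KO mice alone, and the series has no group without poly(I:C), so effects of Cre and of the deletion cannot be told apart. Each array held the amplified RNA of 1 mouse, from 5 ng.

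In these cells 21 of the 37 genes gave a signal above background, among them the ligand genes Tnf, Ltb, Tnfsf10 and Tnfsf14 and the receptor genes Tnfrsf1a, Tnfrsf1b, Tnfrsf14, Tnfrsf18 and Tnfrsf21. No gene of the family passed the test of KO against WT: 0 of 37 had a limma adjusted p under 0.05, where 1 of 30142 genes (0.00332%) did, Abi1 itself. The widest differences were those of Tnf, with a mean log2 signal 0.81 higher in KO, and Ltb, with a mean 0.39 lower in KO. KO and WT arrays overlapped for all 37 genes.

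Ligands of the TNF superfamily are mostly membrane proteins that assemble as trimers, and many can be cut from the cell surface. Their receptors fall into those with an intracellular death domain, which can start apoptosis or necroptosis, those without one, which signal through TRAF adaptors to NF-kappaB and MAP kinases, and decoy or soluble receptors, which bind ligand without signalling. In bone marrow, TNF, FAS ligand and TRAIL (the product of Tnfsf10) are known for their effects on the survival of stem and progenitor cells, and BAFF, CD40, OX40 and their relatives for signalling among lymphocytes.

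Of a list of 10 marker genes of LSK cells 8 were measured, without Ly6a, the Sca-1 gene, which had no probeset of its own. All 8 lay above background, with mean log2 signals of 10.88 to 11.13 in KO arrays and 10.97 to 11.43 in WT arrays, and Abi1 lay at 5.59 to 6.11 in KO arrays and 11.49 to 11.65 in WT arrays. Of 6 measured T cell markers, 1 was above background, with Cd3e, Cd3d, Cd4, Cd8a and Cd5 below, and the list's mean was 4.95 to 5.05 in KO and 4.84 to 5.09 in WT. Markers of other lineages also gave signal: 5 of 5 measured erythroid and 5 of 5 measured megakaryocyte markers, 8 of 8 mast cell and basophil markers and 7 of 9 monocyte and macrophage markers were above background. The arrays were not equally alike. The median correlation with the other arrays was 0.986 for KO replicate 1 and 0.989 for WT replicate 5, against 0.993 to 0.996 for the others. These correlations are across genes, which are not independent replicates. The mean of the 5 erythroid markers was 9.53 to 10.75 in KO arrays and 7.23 to 10.93 in WT arrays, with WT replicate 5 at 7.23. What set these arrays apart was not tested. The background level was set in each array by 1717 genes of olfactory and vomeronasal receptors, at their percentile 95, and was 5.64 in KO replicate 1 and 5.29 to 5.37 in the other 8 arrays. KO replicate 1 was the array with the highest signal for 14 of the 37 members, and for 38.9% of all genes. Neutrophil markers differed between arrays of the KO group: the mean of 9 markers, of which Mmp8, Mmp9 and Retnlg lay below background, was 8.12, 7.97, 5.80 and 6.16 in KO replicates 1 to 4 and 5.39 to 6.62 in WT arrays. In bulk RNA, fewer cells of a type and less RNA per cell cannot be told apart.

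The first question was which ligands and receptors LSK cells express. A gene was called above background where its log2 signal, minus the background level of the array, averaged over 0 across the 9 arrays. By this measure 56.8% of the family lay above background, and 53.2% of all genes, so the family's share was near that of the array as a whole. Of the 21 genes, 20 were above background in each of the 9 arrays, while Tnfsf9 was above it in 8, all but WT replicate 2. Of the 16 others, 14 were below background in every array, Fasl was above in 1 and Tnfrsf23 in 3. Tnfrsf17 and Tnfsf9 were closest to the level among those called, with mean signals 0.26 and 0.25 above it on the log2 scale, and Tnfrsf23 and Tnfrsf8 were closest beneath, at -0.015 and -0.090. Probesets differ in brightness, so the order of signals, which served to pick genes for a fuller account, is not an order of expression.

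**Figure D1:**
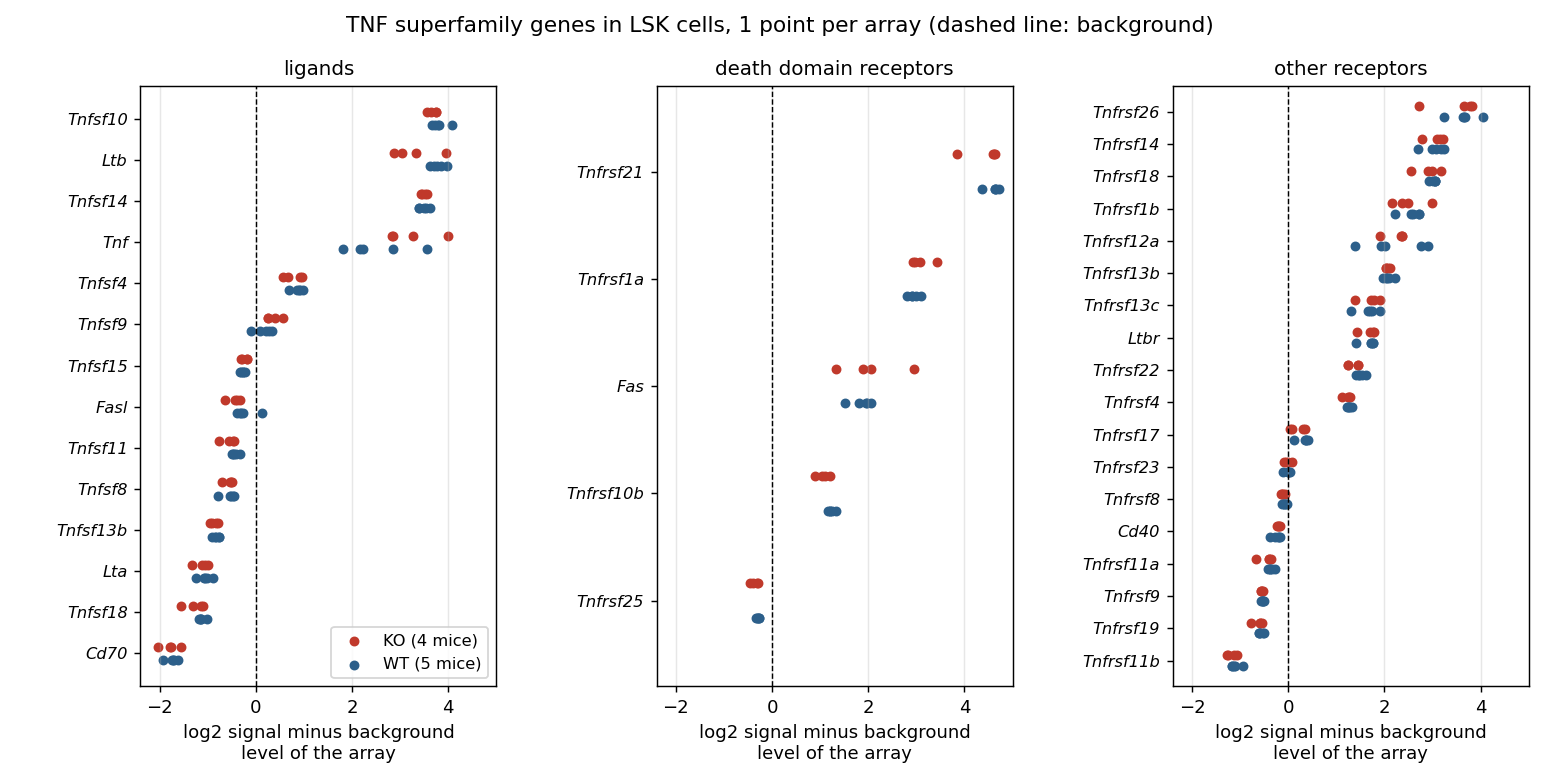
Log2 signal minus the background level of the same array (x axis) for each gene of the family (rows), with ligands, death domain receptors and other receptors in separate panels. Each point is 1 array, KO in red above WT in blue, and the dashed line is the background level. The genes separate into 21 to the right of the line and 16 at or left of it, and the points of KO and WT overlap in every row.

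Among the ligands, 6 of 14 were above background: Tnf, Ltb, Tnfsf4, Tnfsf9, Tnfsf10 and Tnfsf14. Tnf encodes the founding cytokine of the family, a mediator of inflammation. Its log2 signal was 8.91, 9.36, 8.18 and 8.18 in the 4 KO arrays and 8.18, 7.54, 7.19, 7.50 and 8.85 in the 5 WT arrays. The first 2 KO replicates were high and no KO array lay below 8.18, while WT replicates 1 and 5 lay in the KO range and WT replicate 3 was lowest. The means were 8.66 ± 0.58 (SD, n = 4) in KO, against 7.85 ± 0.66 (SD, n = 5) in WT, which is 1.75-fold on the linear scale (0.946 to 3.23 at the 95% level). The difference of 0.81 (SE 0.39) did not pass (limma unadjusted p = 0.0694, adjusted p = 0.786), also by exact permutation, two-sided (p = 0.103).

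Ltb encodes lymphotoxin beta, the membrane anchor of the lymphotoxin trimer, and lies next to Tnf on chromosome 17. Its log2 signal was 8.96, 9.31, 8.39 and 8.20 in KO and 9.31, 9.01, 8.99, 9.18 and 9.05 in WT. KO replicates 1, 3 and 4 were below all WT arrays, and KO replicate 2 equalled the highest WT array. The means were 8.72 ± 0.51 (SD, n = 4) in KO, against 9.11 ± 0.13 (SD, n = 5) in WT, a difference of -0.39 (SE 0.22) with an interval from -0.89 to 0.10, which did not pass (limma adjusted p = 0.786; exact permutation p = 0.159). Lta, whose product joins that of Ltb in the trimer, lies on the other side of Tnf. It was below background in all 9 arrays, at 4.21 to 4.35 in KO and 4.07 to 4.44 in WT. Of the 3 neighbours, Tnf and Ltb thus gave signal and Lta none above background.

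The promoters of these 3 genes are shown because the genes adjoin and differ in whether their signal lay above background. Each sequence runs from 250 bases before the start of the gene to 50 after it, on the gene's own strand, from RefSeq's annotation of GRCm38.p6: Tnf at chr17:35201958-35202257 (minus strand), Lta at chr17:35205302-35205601 (minus strand) and Ltb at chr17:35194257-35194556 (plus strand). Capitals mark a TATAAA motif in Tnf and in Lta and, in Ltb, a match on the opposite strand to the consensus of NF-kappaB, shown as it reads on the printed strand.
Tnf: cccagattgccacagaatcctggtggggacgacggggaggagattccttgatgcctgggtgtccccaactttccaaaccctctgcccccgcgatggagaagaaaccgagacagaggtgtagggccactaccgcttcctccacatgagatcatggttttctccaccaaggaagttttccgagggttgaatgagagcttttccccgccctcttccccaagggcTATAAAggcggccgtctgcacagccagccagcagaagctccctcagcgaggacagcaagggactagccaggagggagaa
Lta: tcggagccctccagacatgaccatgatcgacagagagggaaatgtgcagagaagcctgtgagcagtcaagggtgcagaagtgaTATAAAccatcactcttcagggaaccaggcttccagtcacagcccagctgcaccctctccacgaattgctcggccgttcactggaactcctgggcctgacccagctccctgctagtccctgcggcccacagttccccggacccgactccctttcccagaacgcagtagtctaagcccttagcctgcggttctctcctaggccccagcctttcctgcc
Ltb: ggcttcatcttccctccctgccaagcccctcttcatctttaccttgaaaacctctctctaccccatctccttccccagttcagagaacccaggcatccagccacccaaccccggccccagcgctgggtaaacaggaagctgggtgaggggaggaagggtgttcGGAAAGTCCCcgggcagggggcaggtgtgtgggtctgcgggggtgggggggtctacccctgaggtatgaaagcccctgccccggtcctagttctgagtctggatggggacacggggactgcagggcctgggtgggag
The TATAAA of Tnf lay at bases -29 to -24 from the start and that of Lta at -167 to -162, and the match in Ltb at -87 to -78. Promoters were found for 29 of the 37 genes. The NF-kappaB consensus, searched on both strands, was in 4 of the 29 (Ltb, Tnfrsf8, Tnfrsf9 and Tnfrsf25) and in 9.55% of 27025 genes with a promoter (8.46% of all 32851 windows, since some genes have several). TATAAA was in 6 of the 29 (Lta, Tnf, Tnfrsf17, Tnfrsf23, Tnfsf11 and Tnfsf18), against 15.67% of genes. TGANTCA, the AP-1 motif, was in 5 of the 29 (Fas, Tnfrsf8, Tnfrsf9, Tnfsf13b and Tnfsf14), against 8.97% of genes. The TATAAA and TGANTCA motifs were searched on both strands too. Among genes above background 1, 2 and 2 of 16 promoters held the NF-kappaB, TATAAA and TGANTCA motifs, and among those below background 3, 4 and 3 of 13. A match describes the letters and not a site in use.

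Tnfsf10, which encodes the death ligand TRAIL and is known as an interferon-induced gene, had signals of 9.28, 9.10, 9.10 and 8.87 in KO and 8.99, 9.10, 9.10, 9.42 and 9.10 in WT. The groups overlapped almost fully, with 5 of 9 arrays at 9.10. The means were 9.09 ± 0.17 (SD, n = 4) in KO, against 9.14 ± 0.16 (SD, n = 5) in WT, a difference of -0.055 (SE 0.10) with an interval from -0.29 to 0.18 (limma adjusted p = 0.870), and it was 0.018 without KO replicate 4 and 0.015 without WT replicate 4. Tnfsf14 encodes LIGHT, a ligand of the herpesvirus entry mediator and the lymphotoxin beta receptor. Its signals were 9.09, 8.91, 8.79 and 8.84 in KO and 8.72, 8.84, 8.99, 8.84 and 8.68 in WT, and the groups overlapped. The means were 8.91 ± 0.13 (SD, n = 4) in KO, against 8.81 ± 0.12 (SD, n = 5) in WT, a difference of 0.094 (SE 0.081) with an interval from -0.093 to 0.28 (limma adjusted p = 0.786).

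The 2 other ligands were nearer to background. Tnfsf9 encodes the 4-1BB ligand, a costimulator of T cells. Its signals were 6.21, 5.76, 5.61 and 5.58 in KO and 5.61, 5.2, 5.46, 5.55 and 5.63 in WT. KO replicates 1 and 2 were the highest arrays, and KO replicates 3 and 4 lay in the WT range. The means were 5.79 ± 0.29 (SD, n = 4) in KO, against 5.49 ± 0.18 (SD, n = 5) in WT, and the difference was 0.30 (SE 0.14; limma adjusted p = 0.786; exact permutation p = 0.0714) and 0.16 without KO replicate 1. Tnfsf4, which encodes the OX40 ligand, was 6.21, 6.04, 6.27 and 6.29 in KO and 6.22, 6.22, 6.22, 6.32 and 5.98 in WT, a difference of 0.010, which was -0.036 with each array centred on its median and -0.043 without WT replicate 5. The lowest array of either group was WT replicate 5.

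Of the 5 receptors with a death domain, 4 were above background: Tnfrsf1a, Fas, Tnfrsf10b and Tnfrsf21. Tnfrsf1a encodes TNFR1, through which TNF signals both NF-kappaB activation and death. Its signals were 8.72, 8.80, 8.28 and 8.29 in KO and 8.24, 8.11, 8.46, 8.24 and 8.29 in WT. Both KO replicates 1 and 2 stood above all WT arrays, and KO replicates 3 and 4 lay within them. The means were 8.52 ± 0.28 (SD, n = 4) in KO, against 8.27 ± 0.13 (SD, n = 5) in WT, a difference of 0.25 (SE 0.13) with an interval from -0.038 to 0.55 (limma adjusted p = 0.786; exact permutation p = 0.143).

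Fas encodes the death receptor of FAS ligand and had 2 probesets. The brighter one, which stood for the gene by rule, gave 6.96, 7.25, 7.40 and 8.28 in KO and 7.30, 7.25, 7.17, 6.86 and 7.34 in WT. KO replicate 4 was high and the other arrays overlapped. The means were 7.47 ± 0.57 (SD, n = 4) in KO, against 7.18 ± 0.19 (SD, n = 5) in WT, and the difference was 0.29 (SE 0.25; limma adjusted p = 0.786; exact permutation p = 0.333) and 0.019 without KO replicate 4. The identifier of this probeset carries chromosome 17, whereas RefSeq places Fas on chromosome 19. The 2 chromosomes were the same for 30001 of 30096 probesets (99.68%), so it is uncertain which locus this probeset reads. The probeset that carries chromosome 19 gave 5.80, 5.75, 5.87 and 5.90 in KO and 5.68, 5.75, 5.93, 5.54 and 5.50 in WT. It too was above background in 9 of 9 arrays, and its difference was 0.15 (exact permutation p = 0.159).

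Tnfrsf21, which encodes death receptor 6, had signals of 9.48, 10, 9.94 and 9.94 in KO and 9.96, 9.94, 9.73, 9.99 and 10 in WT. KO replicate 1 was the lowest array and the others lay close together. The means were 9.84 ± 0.24 (SD, n = 4) in KO, against 9.92 ± 0.11 (SD, n = 5) in WT, a difference of -0.084 (SE 0.11) with an interval from -0.34 to 0.17 (limma adjusted p = 0.820), and it was 0.036 without KO replicate 1. Tnfrsf10b encodes the mouse receptor of TRAIL that can kill. Its signals were 6.54, 6.56, 6.40 and 6.43 in KO and 6.54, 6.64, 6.54, 6.54 and 6.54 in WT. KO replicates 3 and 4 lay below all WT arrays, and 5 of 9 arrays held the value 6.54. The difference was -0.078 (SE 0.046) with an interval from -0.18 to 0.028 (limma adjusted p = 0.786; exact permutation p = 0.198). Tnfrsf25, the death receptor of the ligand TL1A, was below background in all arrays, at 4.97 to 5.19 in KO and 5.03 in each WT array.

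Of the 14 receptors without a death domain, 9 were above background. Tnfrsf1b encodes TNFR2, the second TNF receptor. Its signals were 8.12, 8.35, 7.71 and 7.48 in KO and 7.55, 8.02, 7.92, 7.94 and 8.01 in WT. KO replicates 1 and 2 were above all WT arrays, and KO replicate 4 was below them all. The means were 7.92 ± 0.39 (SD, n = 4) in KO, against 7.89 ± 0.19 (SD, n = 5) in WT, a difference of 0.027 (SE 0.18) with an interval from -0.39 to 0.45 (limma adjusted p = 0.967). Its sign was not stable: the difference was -0.020 with array median centring, -0.041 without KO replicate 1, -0.12 without KO replicate 2 and -0.057 without WT replicate 1.

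Tnfrsf14 encodes the herpesvirus entry mediator, a receptor of LIGHT. Its signals were 8.43, 8.45, 8.50 and 8.54 in KO and 8.51, 8.54, 8.45, 8.04 and 8.27 in WT. WT replicates 4 and 5 were lower than the other 7 arrays. The means were 8.48 ± 0.050 (SD, n = 4) in KO, against 8.36 ± 0.21 (SD, n = 5) in WT, a difference of 0.12 (SE 0.10) with an interval from -0.12 to 0.35 (limma adjusted p = 0.786). Ltbr, which encodes the lymphotoxin beta receptor, was 7.06, 7.15, 7.11 and 7.03 in KO and 7.06, 7.06, 6.78, 7.06 and 7.06 in WT. WT replicate 3 was low, and 2 KO arrays lay above the other WT arrays. The difference was 0.084 (SE 0.067) with an interval from -0.070 to 0.24 (limma adjusted p = 0.786; exact permutation p = 0.278).

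Tnfrsf18 and Tnfrsf4 adjoin on chromosome 4 and encode GITR and OX40, costimulatory receptors best known from T cells. Of the 6 measured T cell markers Cd3g was above background, in 9 of 9 arrays, and Cd3e, Cd3d, Cd4, Cd8a and Cd5 had means below it, with Cd5 above in 3 arrays and Cd3d in 1. The part of such cells in the signals of both genes was not tested. Tnfrsf18 gave 8.20, 8.53, 8.34 and 8.23 in KO and 8.34, 8.35, 8.29, 8.39 and 8.34 in WT. The WT arrays lay inside the range of the KO arrays, and the difference was -0.017 (SE 0.067) with an interval from -0.17 to 0.14 (limma adjusted p = 0.942). It was 0.029 with quantile normalization, 0.025 without KO replicate 1 and 0.015 without KO replicate 4. Tnfrsf4 gave 6.76, 6.61, 6.61 and 6.61 in KO and 6.61, 6.57, 6.61, 6.56 and 6.61 in WT. KO replicate 1 was the highest array, 6 of 9 arrays held the value 6.61, and the difference was 0.056 (SE 0.041; limma adjusted p = 0.786).

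Tnfrsf13b, Tnfrsf13c and Tnfrsf17 encode TACI, the BAFF receptor and BCMA, which act in B cells and plasma cells. Tnfrsf13b was 7.76, 7.39, 7.39 and 7.39 in KO and 7.39, 7.33, 7.34, 7.56 and 7.39 in WT, with KO replicate 1 and WT replicate 4 above the rest. Tnfrsf13c was 7.54, 7.14, 6.73 and 7.04 in KO and 7.04, 6.61, 7.02, 7.25 and 7.04 in WT. The groups overlapped, with KO replicate 1 the highest array and WT replicate 2 the lowest. Tnfrsf17 was 5.67, 5.67, 5.43 and 5.67 in KO and 5.67, 5.67, 5.49, 5.76 and 5.67 in WT. Their differences were 0.080, 0.12 and -0.042, within intervals that include 0. Single arrays set the signs: the differences were -0.012 for Tnfrsf13b and -0.022 for Tnfrsf13c without KO replicate 1, and 0.018 for Tnfrsf17 without KO replicate 3. The mean of 7 B cell markers, of which Ms4a1, Pax5, Vpreb3 and Igll1 lay below background, was 5.68 to 5.79 in KO and 5.34 to 5.54 in WT. A list of 5 plasma cell markers includes Tnfrsf17 itself, and of these Prdm1 lay below background. Its mean was 7.57 to 8.14 in KO and 7.55 to 8.81 in WT, highest in WT replicate 4. The part of such cells in the signal of the 3 receptors was not tested.

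Tnfrsf12a encodes FN14, the receptor of the cytokine TWEAK. Its signals were 7.54, 7.72, 7.69 and 7.69 in KO and 8.23, 7.23, 6.75, 7.36 and 8.06 in WT. The KO arrays lay together, inside the WT arrays, of which replicates 1 and 5 were high and replicate 3 was low. The SD was 0.081 (n = 4) in KO and 0.61 (n = 5) in WT. The difference was 0.13 with an interval from -0.52 to 0.79 (limma adjusted p = 0.883), and -0.060 without WT replicate 3.

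Tnfrsf22, Tnfrsf26 and Tnfrsf23 adjoin on chromosome 7 of the mouse. Tnfrsf22 and Tnfrsf23 encode mouse decoy receptors of TRAIL. Tnfrsf26 gave 8.35, 9.19, 9.13 and 8.98 in KO and 8.98, 8.98, 8.61, 8.97 and 9.35 in WT. KO replicate 1 was the lowest array and WT replicate 5 the highest. The means were 8.91 ± 0.39 (SD, n = 4) in KO, against 8.98 ± 0.26 (SD, n = 5) in WT, and the difference was -0.066 (SE 0.20; limma adjusted p = 0.922), 0.11 with arrays weighted by their residual spread and 0.215 without KO replicate 1 and WT replicate 5. Tnfrsf22 gave 6.88, 6.81, 6.6 and 6.77 in KO and 6.81, 6.72, 6.90, 6.81 and 6.91 in WT, a difference of -0.065. The groups overlapped, and KO replicate 3 was lowest. Tnfrsf23 was at background, at 5.27 to 5.72 in KO and 5.26 to 5.34 in WT.

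The ligand genes below background were Lta, Fasl, Cd70, Tnfsf8, Tnfsf11, Tnfsf13b, Tnfsf15 and Tnfsf18. Fasl encodes FAS ligand, Tnfsf11 the osteoclast cytokine RANKL and Tnfsf13b the B cell survival factor BAFF. Fasl was 4.91 to 5.00 in KO and 4.98 to 5.47 in WT, where WT replicate 1 alone, at 5.47, was above background. Tnfsf13b was 4.45 to 4.69 in KO and 4.41 to 4.53 in WT. Tnfsf11 was 4.81 to 4.87 in KO and 4.87 to 4.98 in WT. The receptor genes below background were Cd40, Tnfrsf8, Tnfrsf9, Tnfrsf11a, Tnfrsf11b, Tnfrsf19, Tnfrsf23 and Tnfrsf25. Cd40, the receptor that helper T cells engage on B cells and other antigen-presenting cells, was 5.13 to 5.46 in KO and 4.93 to 5.13 in WT. Tnfrsf11a encodes RANK, and Tnfrsf11b its soluble rival osteoprotegerin. Tnfrsf11a was 4.96 in each KO array and 4.96 to 5.01 in WT. A signal below background says that the transcript was not detectable on this array, not that it is absent.

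Read as pairs of a ligand and a receptor known to bind it, both partners were above background in 8 of 21 pairs. These were Tnf with Tnfrsf1a and with Tnfrsf1b, Ltb with Ltbr, Tnfsf14 with Ltbr and with Tnfrsf14, Tnfsf10 with Tnfrsf10b and with Tnfrsf22, and Tnfsf4 with Tnfrsf4. Ltb was counted here without Lta, whose product joins that of Ltb in the trimer and whose signal was below background. In 7 pairs only the receptor was above background: Lta with Tnfrsf1a and with Tnfrsf1b, Tnfsf18 with Tnfrsf18, Tnfsf13b with its 3 receptors, and Fasl with Fas. In 2 pairs, Tnfsf9 with Tnfrsf9 and Tnfsf10 with Tnfrsf23, only the ligand was. In the remaining 4 neither was: Tnfsf11 with Tnfrsf11a and with Tnfrsf11b, Tnfsf8 with Tnfrsf8, and Tnfsf15 with Tnfrsf25. Of the receptors as a whole 15 of 23 were above background, and of the ligands 6 of 14. Members of the family also lie side by side in the genome, 9 of them on chromosome 4 and 8 on chromosome 17. Among 11 pairs of adjoining protein-coding genes, both were above background in 3 (Ltb and Tnf, Tnfrsf4 and Tnfrsf18, Tnfrsf26 and Tnfrsf22), 1 of the pair in 6, and neither in 2.

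The second question was how the family differs between KO and WT LSK cells. No member passed the test over all genes, and the smallest limma adjusted p was 0.786. At an unadjusted p under 0.05 the count was 0 of 37, where 5.01% of all genes were called, 3.82% with the higher mean in KO and 1.19% with the lower. The groups failed to overlap for 0 of 37 members, where this held for 0.856% of all genes. Means were higher in KO for 25 members and lower for 12. That is 67.6%, near the 63.9% of all genes. The split was 18 and 19 after arrays were centred on their medians, where 43.9% of all genes were higher. With quantile normalization it was 22 and 15, where 53.5% of all genes were higher. The median difference was 0.045 over the members and 0.034 over all genes, and -0.0020 and -0.013 with each array centred on its median. By role, 9 of 14 ligands and 16 of 23 receptors had the higher mean in KO, with medians of 0.034 and 0.056 for the differences.

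Differences were small for most members, and their intervals give the precision that 4 and 5 arrays allow. Over the 21 genes above background the standard errors of the log2 differences had a median of 0.10. The smallest unadjusted p of the family belonged to Tnfsf15, which encodes TL1A. Its signals were 5.33, 5.07, 5.17 and 5.13 in KO and 5.07, 4.98, 5.07, 5.07 and 5.07 in WT, all below background, with a difference of 0.12 (limma unadjusted p = 0.0538, adjusted p = 0.786). The exact permutation test gave p = 0.0397 for this gene, unadjusted and 1 of 37 such tests. Values repeat between arrays: 16 of 37 members (43.2%) had the same value in 5 or more arrays, as did 25.8% of all genes, which makes their measured spread small.

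**Figure D2:**
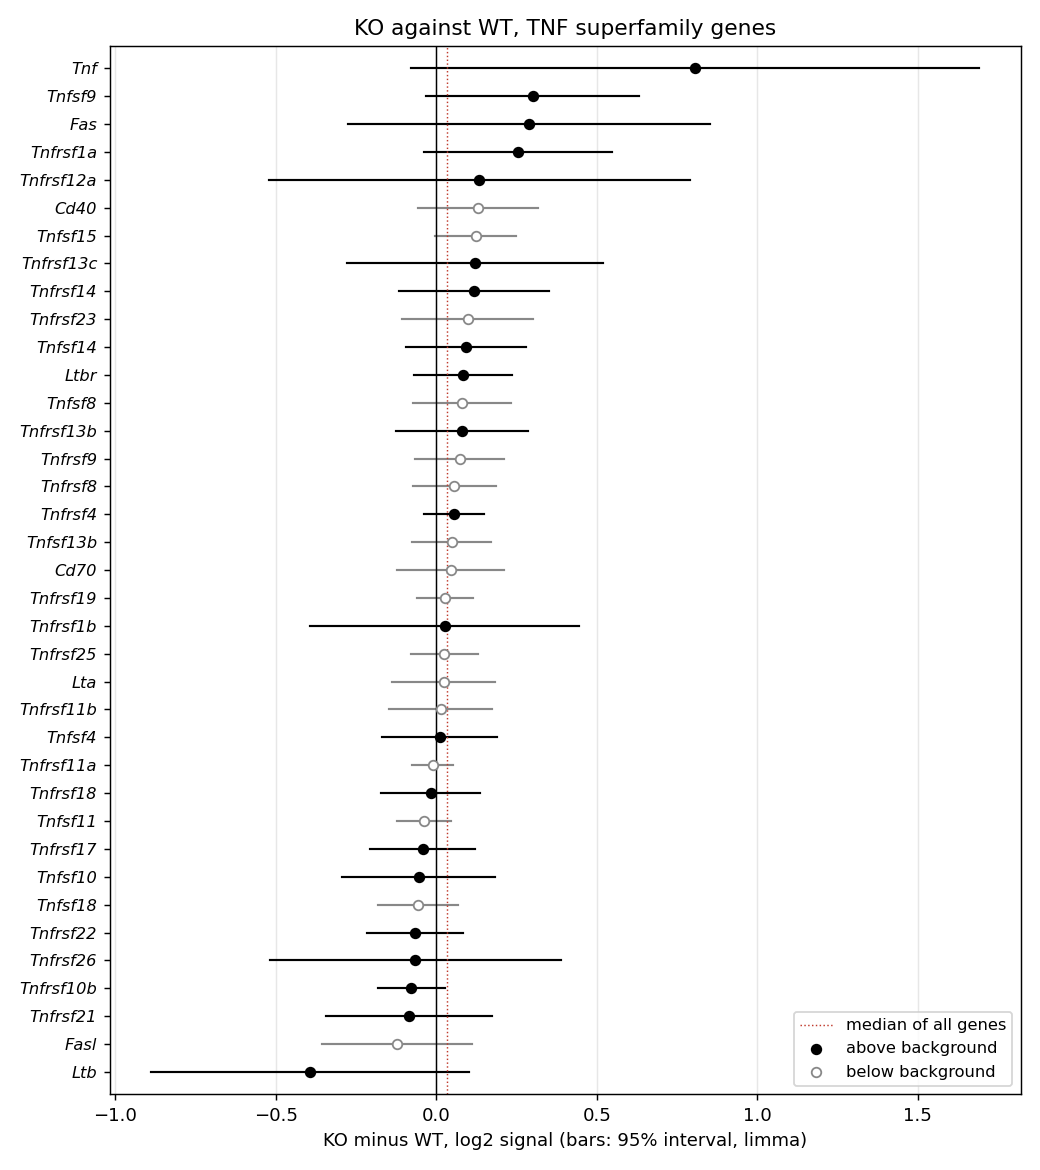
Difference of mean log2 signal, KO minus WT (x axis), for each of the 37 genes (rows, in order of the difference), with the interval at the 95% level from limma. Filled points are genes above background and open points those below, and the dotted line is the median difference of all genes, 0.034. Every interval includes 0, and Tnf at 0.81 and Ltb at -0.39 lie farthest out.

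Some of the wider differences of the family came with differences between arrays of one group. Tnf, Tnfrsf1a, Tnfsf9 and Ltb were each higher in KO replicates 1 and 2 than in KO replicates 3 and 4. So was Tnfrsf1b, whose difference between KO and WT was 0.027. Fas, with a difference of 0.29, ran the other way, at 6.96, 7.25, 7.40 and 8.28 in KO replicates 1 to 4. The neutrophil marker mean was 8.12 and 7.97 in KO replicates 1 and 2, and 5.80 and 6.16 in KO replicates 3 and 4. The neutrophil marker S100a8, which encodes a calprotectin subunit, was 12.58 and 10.87 in the first 2 and 6.52 and 7.48 in the others, while Cxcr2, the chemokine receptor gene of the same list, was 8.57 and 8.50 in the first 2 and 8.61 and 8.75 in the others. Neutrophils and monocytes are known to express the TNF receptors. The part of such cells in these signals was not tested. Without KO replicates 1 and 2 the difference of Tnf was 0.33, that of Tnfrsf1a 0.017 and that of Tnfrsf1b -0.29. The difference of Ltb was then -0.81 (limma unadjusted p = 0.000282, adjusted p = 0.931). That p cannot serve as a test, because the arrays were left out with the values known. KO replicates 1 and 2 held the higher Ltb signals of the group, 8.96 and 9.31 against 8.39 and 8.20, so leaving them out had to widen the difference. The difference of Ltb was -0.59 without KO replicate 2 alone, and -0.22 without KO replicate 4.

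The size of the difference of Tnf also varied with the WT arrays kept. WT replicates 2 and 3 had the lowest signals for Tnfrsf12a and for Nfkbia, the gene of the NF-kappaB inhibitor, and were among the 3 lowest for Tnf. Without them the difference of Tnf was 0.48, and without WT replicate 5, where Tnf was 8.85, it was 1.05 (limma unadjusted p = 0.0130, adjusted p = 0.780). Leaving out 1 array at a time gave differences of Tnf from 0.57 to 1.05, all with the higher mean in KO. These choices of arrays were made with the values known.

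**Figure D3:**
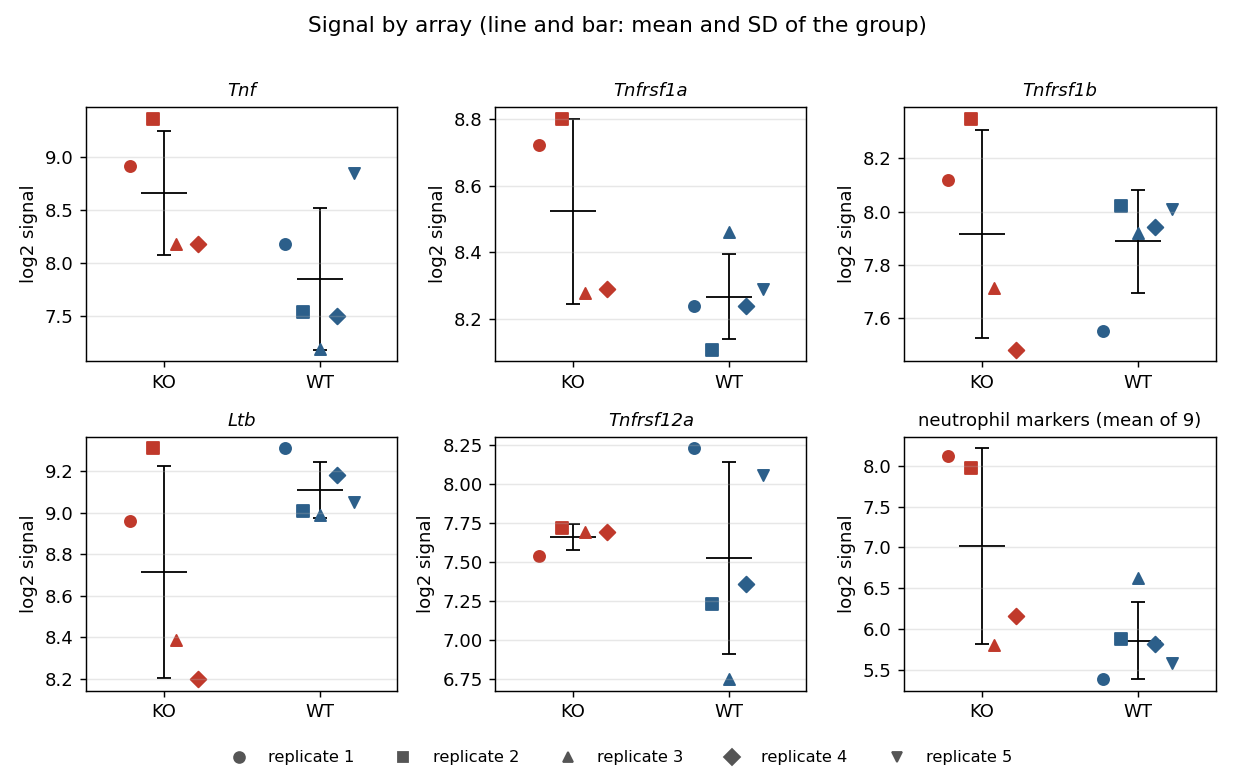
Log2 signal by array (y axis) for Tnf, Tnfrsf1a, Tnfrsf1b, Ltb and Tnfrsf12a and, in the last panel, the mean of 9 neutrophil markers. KO is left of WT, each marker shape is 1 replicate number, and lines with bars are the mean and SD. KO replicates 1 and 2 are above KO replicates 3 and 4 in each panel other than that of Tnfrsf12a, where the WT arrays spread over more than the KO arrays.

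Relatives whose symbols fall outside the rule gave the same picture. Of 7 such genes 6 were measured, since Cd27 had no probeset of its own. Of the 6, 4 were above background, where 53.2% of all genes were: Relt, Ngfr, Eda2r and Edar. Relt lay 2.41 above the level on the log2 scale, but Ngfr, Eda2r and Edar lay only 0.31, 0.16 and 0.095 above it. Eda2r was above background in 8 of 9 arrays and Edar in 7. Cd40lg, the gene of the CD40 ligand of helper T cells, and Eda, the gene of ectodysplasin, were below. None had an unadjusted p under 0.05. Relt, an orphan receptor of blood cells, was 7.91, 8.00, 7.74 and 7.70 in KO and 7.70, 7.63, 7.74, 7.84 and 7.74 in WT. KO replicates 1 and 2 were the highest arrays, and the difference was 0.11 (SE 0.072; limma adjusted p = 0.786). The 3 others with the smallest p were Eda2r and Edar, the receptors of ectodysplasin forms, and Cd40lg, which differed by 0.082, -0.038 and -0.024. Tnfsf12 and Tnfsf13, the genes of TWEAK and APRIL, share a probeset and were not analysed here.

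The genes that carry the signal from these receptors were examined next. Of a list of 51, among them adaptors (Tradd, Fadd, the Traf genes), kinases, caspases and the NF-kappaB proteins with their inhibitors, 45 were measured, and these 45 were above background, where 53.2% of all genes were. The other 6 were not analysed here. None passed over all genes, and 3 of the 45 had an unadjusted p under 0.05: Nfkbia, Bid and Rela, each with the higher mean in KO. This p was reached by 5.01% of all genes and by 1110 of the 16023 genes above background. The share of the list was near that of the genes above background. In all, 16 of 45 (35.6%) had the higher mean in KO and 29 the lower, with a median difference of -0.045, beside 63.9% higher and a median of 0.034 over all genes, and 54.3% and 0.018 over genes above background. The median of the list was 0.0067 without KO replicate 1, so its sign rests on that array. Groups did not overlap for 2 of the 45, Nfkbia and Rela. This held for 0.856% of all genes and for 193 of the 16023 genes above background.

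Rela encodes the p65 subunit of NF-kappaB. Its signals were 11.19, 11.84, 11.02 and 11.05 in KO and 10.93, 10.60, 10.60, 10.74 and 10.93 in WT. Every KO array was above every WT array, with KO replicate 2 set apart at the top. The means were 11.28 ± 0.38 (SD, n = 4) in KO, against 10.76 ± 0.17 (SD, n = 5) in WT, a difference of 0.52 (SE 0.17; limma unadjusted p = 0.0173, adjusted p = 0.786; exact permutation p = 0.00794, the smallest that 4 against 5 allow). The difference was 0.33 without KO replicate 2. Nfkbia, which NF-kappaB itself induces, was 13.52, 13.81, 13.72 and 13.47 in KO and 13.40, 12.52, 12.47, 12.70 and 12.85 in WT. WT replicate 1 was the highest WT array and lay just below the KO arrays. Its difference was 0.84 (SE 0.19) with an interval from 0.41 to 1.27 (limma unadjusted p = 0.00176, adjusted p = 0.786).

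Bid encodes the protein that links death receptors to mitochondria. It was 8.67, 8.80, 8.71 and 8.55 in KO and 8.45, 8.55, 8.57, 8.27 and 8.38 in WT. KO replicate 4 reached into the WT range, and the difference was 0.24 (SE 0.075; limma unadjusted p = 0.0127, adjusted p = 0.786; exact permutation p = 0.0476). Tbk1, a kinase of the TRAF pathways, was 8.51, 8.66, 8.66 and 8.47 in KO and 8.66, 8.66, 8.66, 8.97 and 8.89 in WT. KO replicates 1 and 4 lay below the rest, and the difference was -0.19 (SE 0.084; limma unadjusted p = 0.0502, adjusted p = 0.786).

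**Figure D4:**
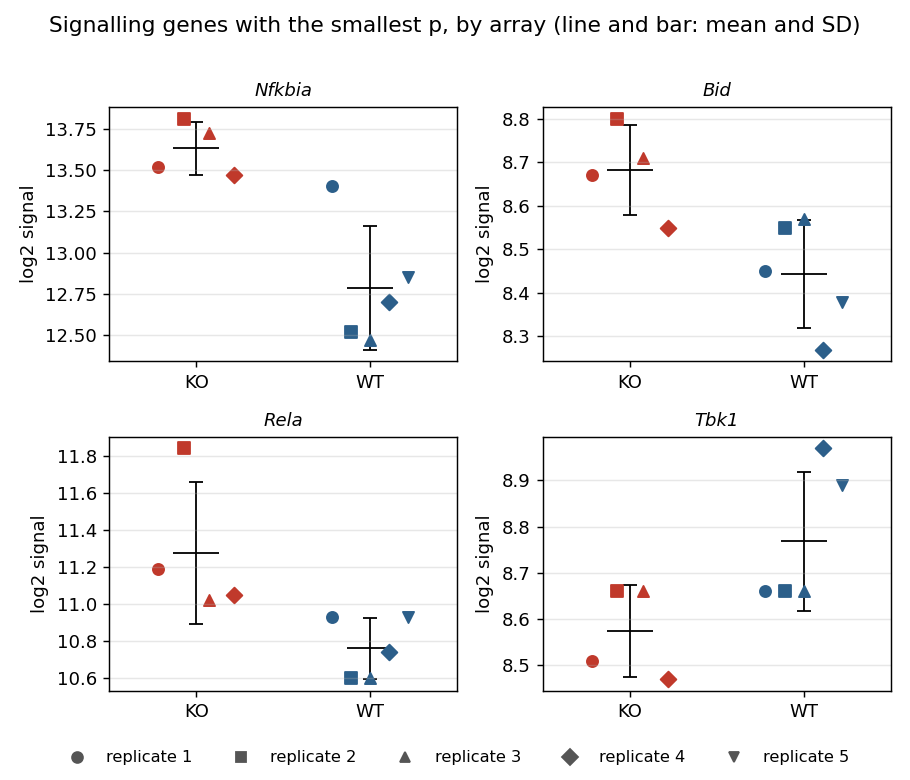
Log2 signal by array (y axis) for Nfkbia, Bid, Rela and Tbk1, the 4 genes of the signalling list with the smallest unadjusted p, KO left of WT. Shapes mark replicate numbers, and lines with bars are the mean and SD. KO arrays are above all WT arrays for Nfkbia and Rela and overlap with them for Bid and Tbk1.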

How the data were processed

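LSK cell RNA of 4 KO and 5 WT mice was hybridised to Affymetrix whole-transcript arrays, 1 for each mouse. The deposited table holds log2 signals of 72688 probesets, which the authors summarised. Partek 6.6 is the tool that the submitters' processing notes name. How they corrected and normalized the signals, and the log base, is not given in the labels; the range of the values, 1.84 to 19.45, was read as log2, on which every fold rests. The array gives no counts, so the number of arrays limits the precision.

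Of 65956 target probesets 30604 carried exactly 1 symbol in the platform annotation, 2146 carried several and 33206 were not listed. The brightest by mean over 9 arrays stood for each of 30142 genes, and 821 symbols were updated to RefSeq GRCm38.p6. The groups were compared by limma 3.58.1 under R 4.3.3 (lmFit, eBayes without trend, Benjamini-Hochberg over all genes, threshold 0.05), without covariates. Single genes were also compared with exact two-sided permutation over 126 splits. The limma fit was run on simulated arrays with independent normal noise. Those lacked the repeated values and the outlying arrays of these data, so they do not check the test under such conditions. The labels number the mice within each group and name no litter, sort day or scan day. The replicates are separate mice, and intervals are limma intervals at the 95% level. Alternatives were other scalings, array weights, a replicate block, a trend, other background rules and arrays left out.

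Per-array values were given for genes above background. Full statistics were given for the 8 brightest of these, the 8 with the smallest p, any with groups apart or an unadjusted p under 0.05, and Tnf, Fas, Tnfrsf1a, Tnfrsf1b and Tnfsf10. From the other lists, genes with an unadjusted p under 0.05 or the 4 smallest p were named. Tnfsf15 was described because its p was the smallest. The members and lists were chosen with earlier results of these data known.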

Additional observations from a re-analysis of the deposited data

Results flagged for a closer look

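In 58 groups, the KO and the WT arrays of 29 named genes, a test for a single far value (Dixon's, at its 95% level) marked 11 arrays, where chance marks about 1 in 20 groups. In 10 of the 11 the whole range of the group was under 0.5 on the log2 scale, and in groups where most arrays hold one value a small step is enough to be marked. In the KO group, replicate 1 was marked for 4 genes. Its log2 signal was 7.54 for Tnfrsf12a (others 7.69 to 7.72), 7.76 for Tnfrsf13b (others 7.39), 9.48 for Tnfrsf21 (others 9.94 to 10) and 6.76 for Tnfrsf4 (others 6.61). KO replicate 3 was marked at 5.43 for Tnfrsf17 (others 5.67).

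In the WT group, replicate 3 was marked at 6.78 for Ltbr (others 7.06) and at 9.73 for Tnfrsf21 (others 9.94 to 10). Replicate 4 was marked at 7.56 for Tnfrsf13b (others 7.33 to 7.39) and at 9.42 for Tnfsf10 (others 8.99 to 9.10). Replicate 2 was marked at 6.64 for Tnfrsf10b (others 6.54), and replicate 1 at 7.55 for Tnfrsf1b (others 7.92 to 8.02).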

How the results depend on the processing

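No gene of the family, of its relatives or of the signalling list passed an adjusted p of 0.05 in limma under any alternative run. Of 551 alternative values for 29 named genes, 505 kept the direction of the difference and 46 did not, and the smallest adjusted p was 0.50. Over all genes, array weights called 2 in place of 1. At an unadjusted p under 0.05, where the count was 0 of 37 members, it was 3 with quantile normalization (Tnf, Tnfrsf1a and Tnfsf9), 1 with array median centring (Tnfsf9), 3 with array weights (Ltb, Tnfrsf10b and Tnfsf15), 1 without KO 1 and WT 5 (Tnf) and 4 without KO 1 and KO 2 (Fas, Ltb, Tnfrsf10b and Tnfsf15). Leaving out single replicates gave 0 to 2 (2 without KO 2 or KO 4, 1 without KO 3 or WT 5). The count for the signalling list was 3, and 5 with array weights and without WT 2 and WT 3, and 3 to 7 leaving out single replicates (5 without KO 2, 6 without KO 3, 7 without WT 1). The median difference of the members, 0.045, was -0.0020 with array median centring, 0.0043 with array weights, 0 without KO 1 and WT 5, 0.0010 without KO 1 and KO 2 and 0.0060 to 0.068 leaving out single replicates (0.0060 without KO 1). That of the relatives was -0.043 without KO 1 and KO 2. That of the signalling list, -0.045, was 0.0067 without KO 1, 0.0058 without KO 1 and WT 5 and -0.0094 with quantile normalization.

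Above background were 21 members, and 19 at percentile 99 of the receptor genes or at the highest antigenomic control of each array, where Tnfrsf17 and Tnfsf9 dropped out. None of the 37 exceeded the percentile 95 of control probesets marked neg (10.7 to 12.3), giving 0. The median of those controls was 6.20 to 6.89, and the cause of their high level was not tested.

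The differences that follow changed sign, and the cause was not tested. Array weights gave -0.0083 for Tnfrsf13b, -0.011 for Tnfrsf13c, -0.080 for Tnfrsf1b, 0.015 for Tnfrsf21 and 0.11 for Tnfrsf26. Without KO 1 and WT 5 the values were -0.015 for Tnfrsf13b, -0.010 for Tnfrsf13c, 0.024 for Tnfrsf18, -0.011 for Tnfrsf1b, 0.055 for Tnfrsf21, 0.215 for Tnfrsf26, -0.00080 for Tnfsf14 and -0.045 for Tnfsf4. Without KO 1 and KO 2 they were -0.012 for Tnfrsf13b, -0.11 for Tnfrsf13c, -0.29 for Tnfrsf1b, 0.016 for Tnfrsf21, 0.077 for Tnfrsf26 and -0.010 for Relt. Without WT 2 and WT 3 Tnfrsf12a was -0.22. Quantile normalization gave 0.029 for Tnfrsf18, and array median centring -0.020 for Tnfrsf1b and -0.036 for Tnfsf4. Leaving out single replicates gave -0.060 to 0.31 for Tnfrsf12a, -0.012 to 0.12 for Tnfrsf13b, -0.022 to 0.25 for Tnfrsf13c, -0.083 to 0.018 for Tnfrsf17, -0.085 to 0.025 for Tnfrsf18, -0.12 to 0.17 for Tnfrsf1b, -0.14 to 0.036 for Tnfrsf21, -0.16 to 0.12 for Tnfrsf26, -0.12 to 0.018 for Tnfsf10, -0.043 to 0.065 for Tnfsf4, -0.069 to 0.035 for Cd40lg and -0.13 to 0.043 for Edar. The choices KO 1 and KO 2, WT 2 and WT 3, the antigenomic controls and the second Fas probeset were made after seeing the data.

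KO and WT share replicate numbers 1 to 4, which the labels tie to nothing. Deviations of arrays with the same number correlated at -0.178 to 0.27 across genes, and 2 of 4 pairs correlated best with their own number. For KO 4 the lead was slight, at 0.2696 with WT 4 and 0.2689 with WT 1. With the replicate number as a block, which leaves WT 5 out, 2 members (Tnf and Tnfsf9) and 6 signalling genes had an unadjusted p under 0.05. The difference of Tnf was 1.05 (limma adjusted p = 0.810), that of Tnfrsf26 0.028, that of Tnfsf4 -0.043 and that of Edar 0.013.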

Other observations

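Promoters of the family varied in their number of CG dinucleotides. The median was 9.5 (range 2 to 23) in the 16 genes above background and 9 (range 3 to 43) in the 13 below, against 7 in the promoters of 27025 genes of the annotation. These values are a description of 300-base windows and were not tested.

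Markers of mast cells and megakaryocytes, cell types that can carry receptors of the family, were above background throughout. The mean of 8 mast cell and basophil markers was 9.43 to 9.87 in KO arrays and 8.23 to 9.68 in WT arrays. The mean of 5 megakaryocyte markers was 9.91 to 10.3 in KO arrays and 7.91 to 10.3 in WT arrays. WT replicate 5 had the lowest mean of both lists. Among members above background, it was the highest WT array for Tnf, Tnfrsf26, Fas, Tnfsf9, Tnfrsf21 and Tnfrsf22. It was the lowest WT array for Tnfsf14 and Tnfsf4. Monocyte and macrophage markers, 7 of 9 above background, averaged 7.98 to 8.62 in KO arrays and 7.90 to 8.49 in WT arrays. The part of such cells in the signals of the family was not tested.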
